A study of Mus musculus with 18 samples.

Results

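Collagen genes were followed in RNA sequencing of newborn mouse forebrain tissue and cultured neural progenitors that lacked the CxxC zinc finger of KDM2B or carried a conditional deletion of Rnf2. All genes named Col, a number, a and a second number were taken, whatever their values, which gave 44 genes, present in each of the 4 tables. The 44 are among 23138 named genes of the hippocampal Kdm2b table, 23398 of the neurosphere table and 54429 each of the cortical Kdm2b and the hippocampal Rnf2 table. They were sorted by protein type into 11 fibrillar collagens, 8 collagens of basement membranes and 25 others, the last a mixed class of beaded-filament, fibril-associated, transmembrane and short collagens.

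Collagens are secreted proteins built of 3 chains wound into a triple helix. Fibrillar collagens such as types I, II and III assemble into the cable-like fibrils of connective tissue and cartilage, type IV collagen forms the sheet-like net of basement membranes, and the fibril-associated and transmembrane types attach to those structures or to cells. Brain tissue proper holds few collagen fibrils. In the forebrain, collagens I and III are made mainly by fibroblasts of the meninges, and collagen IV by cells of the blood vessels and the meninges.

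The series holds 18 libraries, all labelled postnatal day 0, which for neurospheres is the age at which the culture began. Controls are labelled Kdm2bfl/+ or Kdm2bfl/fl, so all carried at least 1 floxed allele, and the knockouts (cKO) are labelled Kdm2bEmx1-delta-CxxC, with 3 against 3 libraries of hippocampus, 2 against 2 of hippocampal neurospheres and 2 against 2 of cortex. Another 2 control libraries (Rnf2fl/+ or Rnf2fl/fl) and 2 cKO libraries (Rnf2Emx1-cKO) come from hippocampus, and Rnf2 encodes RING1B, the ubiquitin ligase of Polycomb repressive complex 1. Emx1-Cre acts in progenitors of the dorsal forebrain and their descendants, so other cells in the tissue, such as those of vessels, keep their floxed alleles, and the Kdm2b deletion removes the exon of the CxxC zinc finger, which binds CpG-rich DNA, and leaves the rest of the gene. Neurospheres were grown floating from newborn hippocampal progenitors with FGF2 and EGF, for 3 generations in culture by the methods. The labels do not say whether libraries come from separate animals or cultures, so p values measure the spread between libraries, which may be technical.

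Values are FPKM, fragment counts scaled by transcript length and by the mapped fragments of the library. Reads recovered from the values came to 18480515 to 21905224 per cortical and 14654894 to 16334420 per Rnf2 library, and the depth of the other libraries is unknown. In neurosphere control library 1, entries that name no gene held 29.3% of all FPKM, against 0.876% to 1.95% in the other neurosphere libraries. FPKM over the whole Kdm2b gene was 28.1 to 31.9 in control and 26.2 to 28.2 in cKO hippocampus, and since a single exon was deleted this level does not check the labels. Whole-gene Rnf2 was 30.8 and 32.3 FPKM in control and 27.8 and 28.5 FPKM in libraries labelled Rnf2 cKO, a log2 fold change of -0.16 (limma adjusted p = 0.762) that was not called. The level of Rnf2 therefore does not show the deletion, and every comparison with Rnf2 cKO rests on the labels. The labels of tissue and culture were checked with 6 neuronal markers, whose sum was 1515 to 2082 FPKM over the tissue libraries of all genotypes and 20.9 to 31.7 FPKM in neurospheres, and 6 progenitor markers, whose sum was 3704 to 6992 FPKM in neurospheres, where the Fabp7 entry is joined with Smpdl3a. These sums set tissue apart from neurospheres but cannot tell cortex from hippocampus, so those 2 labels were not checked.

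Tests used limma on log2(FPKM + 1) and took in genes whose mean over a table reached 0.5 FPKM. This is a scale that understates changes of low genes. Calls, higher or lower, need a log2 fold change over 0.4 in size together with an unadjusted p under 0.05, and adjusted p values are Benjamini-Hochberg values over all genes of the table. All log2 fold changes are cKO minus control on this scale. Of the 44 collagen genes, 13 were tested in all 4 tables, 10 were under the filter in every table, and 22 were called in at least 1 table. Calls were 3 of 33 tested in Kdm2b hippocampus and 12 of 18 in neurospheres. They were 13 of 24 in Kdm2b cortex and 4 of 26 in Rnf2 hippocampus. In that order of tables, 3.89%, 11.4%, 4.73% and 2.86% of all genes tested were called higher. Those called lower were 2.25%, 13.2%, 2.28% and 1.85%.

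**Figure D1:**
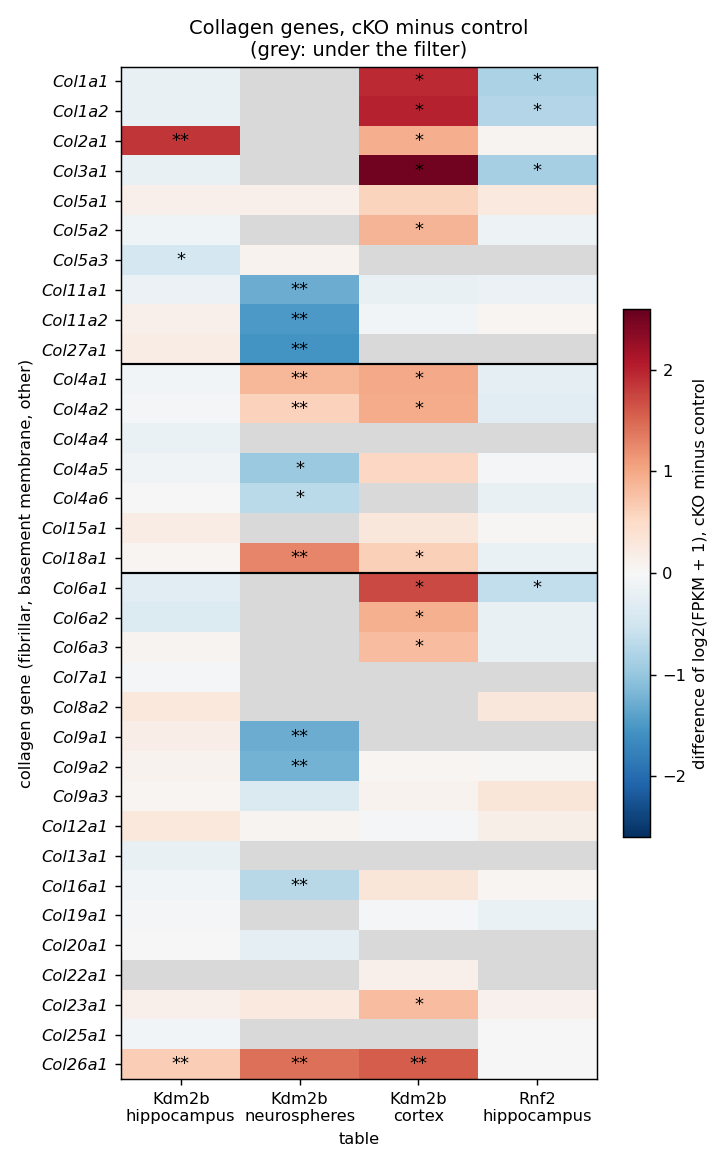
Differences of log2(FPKM + 1), cKO minus control, for the 34 collagen genes tested in at least 1 table (rows, with fibrillar, basement membrane and other collagens parted by black lines) in the 4 tables (columns). Red is higher and blue lower in cKO, grey is under the filter, 1 star marks a call and 2 stars a call that also has an adjusted p under 0.05; Col26a1 is red in the 3 Kdm2b columns, and Col1a1, Col1a2 and Col3a1 are red in the cortex and blue in Rnf2 hippocampus.

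The chromosomal setting of these genes is given from the Ensembl models in the cortical table (GRCm38). Several collagen genes lie side by side. Col4a1 and Col4a2, on chromosome 8, point away from each other and their models share 22 bases at the start, Col4a4 and Col4a3 on chromosome 1 are 71 bases apart and Col4a6 and Col4a5 on the X chromosome 1308 bases apart in the same arrangement. Col3a1 and Col5a2, on chromosome 1, lie tail to tail with 24614 bases between them, and Col6a2 and Col6a1 lie on the same strand of chromosome 10 with 85161 bases between them. Col2a1 is on chromosome 15 (97975602 to 98004695, minus strand) and Col26a1 on chromosome 5 (136741759 to 136883209, minus strand).

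Because the deleted zinc finger of KDM2B binds CpG dinucleotides, the 250 bases before the RefSeq start (GRCm38.p6) were searched for the letters CG, which read the same on both strands. Of the 44 genes, 35 matched, several with more than 1 start. Col2a1, Col26a1 and Col1a1 had no window, so the CG values do not cover them. In the window richest in CG of each matched gene the median was 10, against 6 over 32851 windows of all genes. At least 10 CG were found in 54.3% of matched collagen genes and in 37.8% of all windows. The richest window was taken for collagens but not for the other genes, which can raise the collagen values. The windows of 3 genes that fell in neurospheres, Col9a1, Col11a1 and Col11a2, and of Col3a1, which has the largest cortical change of the collagens on the log2(FPKM + 1) scale, are shown because they differ in CG and overlap no annotated exon. CG is in capitals, and the letters describe sequence, not binding.
Col9a1, chr1:24177360-24177609, plus strand: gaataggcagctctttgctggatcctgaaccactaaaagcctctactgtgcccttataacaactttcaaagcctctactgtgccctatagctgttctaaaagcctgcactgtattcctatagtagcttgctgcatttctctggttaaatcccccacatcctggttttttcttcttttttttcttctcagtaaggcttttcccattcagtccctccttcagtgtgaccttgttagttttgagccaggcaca
Col3a1, chr1:45311288-45311537, plus strand: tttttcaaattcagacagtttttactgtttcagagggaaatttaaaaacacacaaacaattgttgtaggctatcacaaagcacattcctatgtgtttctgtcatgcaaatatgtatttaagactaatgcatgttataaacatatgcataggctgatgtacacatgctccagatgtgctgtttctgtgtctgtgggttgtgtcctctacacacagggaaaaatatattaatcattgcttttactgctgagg
Col11a1, chr3:114030290-114030539, plus strand: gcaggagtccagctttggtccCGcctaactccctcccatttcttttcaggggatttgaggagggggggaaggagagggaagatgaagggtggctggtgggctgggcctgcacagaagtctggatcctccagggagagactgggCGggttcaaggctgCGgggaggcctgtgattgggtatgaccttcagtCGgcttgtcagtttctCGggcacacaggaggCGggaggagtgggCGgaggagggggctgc
Col11a2, chr17:34038888-34039137, plus strand: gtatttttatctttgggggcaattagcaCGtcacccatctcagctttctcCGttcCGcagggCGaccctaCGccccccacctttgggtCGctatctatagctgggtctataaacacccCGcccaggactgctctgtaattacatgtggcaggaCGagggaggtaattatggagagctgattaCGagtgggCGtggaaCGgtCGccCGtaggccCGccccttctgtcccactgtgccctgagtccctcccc
The first 2 hold 0 CG, the Col11a1 window holds 7, which 46.3% of all windows reach, and the Col11a2 window holds 14, which 29.4% reach. Col9a1, with 0 CG, and Col11a2, with 14, both fell in neurospheres, and the relation of CG to change was not tested.

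In Kdm2b cKO hippocampus, Col2a1 rose 4.34-fold and Col26a1 1.60-fold, Col5a3 fell to 0.501 of its control mean, and the other 30 collagen genes tested were not called. Col2a1 encodes the single chain of type II collagen, the main fibril of cartilage. Its level was 4.20, 3.51 and 3.56 FPKM in the 3 control libraries and 18.2, 18 and 12.8 FPKM in the 3 cKO libraries. Every cKO library was far above every control library, and the lowest of them was cKO library 3. The means were 3.76 ± 0.387 (SD, n = 3) and 16.3 ± 3.08 (SD, n = 3) FPKM, with a log2 fold change of 1.85 (SE 0.13, limma adjusted p = 0.000173). With any 1 library left out the log2 fold change stayed between 1.77 and 2.01.

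Col26a1 encodes a short collagen of the extracellular matrix. It was at 11.4, 9.05 and 9.31 FPKM in control and 16.7, 16.5 and 14.6 FPKM in cKO hippocampus, again without overlap of the groups. The log2 fold change was 0.64 (SE 0.094, adjusted p = 0.00624). Col5a3, a minor chain of type V collagen, was at 1.16, 1.51 and 1.05 FPKM in control and 0.638, 0.752 and 0.475 FPKM in cKO libraries, with a log2 fold change of -0.46 (SE 0.13, adjusted p = 0.0583, limma). Without control library 2 or without cKO library 3 its log2 fold change was -0.38 or -0.40 and it was no longer called.

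Apart from Col26a1, the most abundant collagens of each class in hippocampus did not pass the test. Among the fibrillar class the highest control levels were those of Col3a1 (13.5 ± 1.73 FPKM, SD, n = 3), Col1a2 (12.9 ± 1.85) and Col1a1 (9.76 ± 1.23), the chains of collagens III and I, against cKO means of 12, 11.4 and 8.6 FPKM. Col4a1 and Col4a2, the 2 chains of the ubiquitous collagen IV, were at 29.3 ± 3.16 and 22.1 ± 2.32 FPKM in control and 27.9 and 21.6 FPKM in cKO. Col15a1, a basement membrane collagen, was at 7.11 ± 0.945 and 8.32 ± 1.35 FPKM. Col9a3, a chain of the fibril-associated collagen IX, was at 9.71 ± 0.825 and 10.1 ± 0.826 FPKM. For each of these, the difference of the means was smaller than the SD of the cKO libraries. The cKO library 3 stood apart for the collagens of connective tissue, with a sum of Col1a1, Col1a2 and Col3a1 of 21.6 FPKM against 31.1 to 40.7 FPKM in the other 5 libraries.

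Counted by class, 10 fibrillar genes were tested with 1 higher and 1 lower, 7 basement membrane genes with none called, and 16 others with 1 higher. The shares of all tested genes called in this table were 3.89% higher and 2.25% lower, and 4.41% were called in either direction at an adjusted p under 0.05. Of the 33 collagen genes tested, 2 were higher and 1 lower, and 2 had an adjusted p under 0.05, so the counts are close to those shares. The largest collagen change was that of Col2a1 (1.85), while log2 fold changes over all genes tested ran from -3.52 to 3.57. The median log2 fold change was -0.13 for fibrillar, -0.04 for basement membrane and 0.03 for other collagens, beside 0.01 over all genes tested. Col6a1 and Col6a2, chains of the beaded-filament collagen VI, lay lower in all 3 cKO libraries, at 3.8 to 4.77 against 5.11 to 6.12 FPKM and at 3.23 to 4.12 against 4.78 to 5.31 FPKM, with log2 fold changes under the threshold.

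Other cartilage genes and the SOX factors that activate Col2a1 in cartilage were read from lists. Of 10 cartilage genes other than collagens, 4 were tested in Kdm2b hippocampus and 1 was called, Pth1r, a parathyroid hormone receptor, which went from a mean of 3.47 to 14.1 FPKM (log2 fold change 1.75, adjusted p = 4.48e-05). Acan, the main cartilage proteoglycan, was at 1.45 ± 0.221 and 1.30 ± 0.465 FPKM and was not called. Of the 3 SOX genes, Sox9 rose from 10.3 to 17.1 FPKM (log2 fold change 0.68, adjusted p = 0.00151) and Sox6 from 4.95 to 7.42 FPKM (log2 fold change 0.51, adjusted p = 0.039, limma). The SOX sum was 20.4 to 24.2 FPKM in control and 30.2 to 31.1 FPKM in cKO libraries, and its part in the Col2a1 level was not tested. Of 16 genes of chain modification and folding tested, 0 were called by limma. Loxl1, a lysyl oxidase (4.44 to 8.27 FPKM, adjusted p = 0.0174), was the 1 called of 13 secretion and cross-linking genes, Timp4, a metalloproteinase inhibitor, fell (7.87 to 4.49 FPKM, adjusted p = 0.016) as the 1 called of 9 breakdown genes, and of 5 receptor genes 1 was called, in an entry that joins Lair1, a leukocyte receptor of collagen, with another gene (2.47 to 3.71 FPKM, adjusted p = 0.0586) and is uncertain for Lair1.

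Markers of other cell types were set beside these values. In hippocampus, 0 of 12 meningeal fibroblast markers were called by limma, with a sum of 66.5 to 97.8 FPKM in control and 62.3 to 97.2 FPKM in cKO libraries, and 0 of 9 endothelial and 0 of 8 mural markers tested were called. Of 8 choroid plexus markers 4 were tested and 2 were higher, and their sum was 14.3 to 27.5 FPKM in control and 70.0, 52.0 and 16.6 FPKM in cKO libraries 1, 2 and 3. Col2a1 was at 18.2, 18 and 12.8 FPKM in the same 3 libraries, and the part of choroid plexus cells in it was not tested. In bulk tissue, fewer cells of a type and less RNA per cell cannot be told apart.

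**Figure D2:**
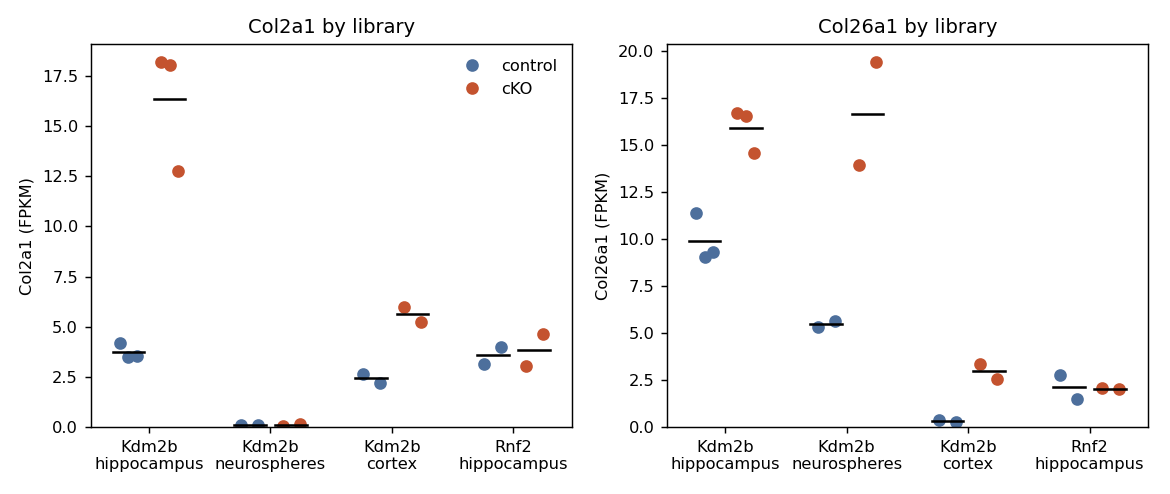
Col2a1 (left) and Col26a1 (right) in FPKM, with 1 point per library and a black line at the mean of each group (blue control, red cKO; n = 3 and 3 in Kdm2b hippocampus, 2 and 2 in the other tables). Col2a1 is at 12.8 to 18.2 FPKM in Kdm2b cKO hippocampus and near 0 in all neurosphere libraries, and Col26a1 is above the controls in the cKO libraries of all 3 Kdm2b tables.

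The neurosphere table asks how the deletion acts on cultured progenitors away from other tissue. There, 4 of the 18 collagen genes tested were higher and 8 lower in cKO, and 10 of these 12 had an adjusted p under 0.05. That last count fell when either control library was left out, which left 1 library in the group, and the count over all genes fell as well. The background was also high, as 11.4% of all genes tested were called higher, 13.2% lower and 19.3% either way with an adjusted p under 0.05. With libraries rescaled to the same FPKM total, calls over all genes went from 1392 higher and 1620 lower to 1256 higher and 830 lower, and those with an adjusted p under 0.05 from 2358 to 1136, while the collagen counts stayed at 4 and 8. The falls took in the 3 most abundant fibrillar chains and 3 chains of fibril-associated collagens, and the rises took in 3 basement membrane chains and Col26a1.

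Among fibrillar collagens, 3 of 5 tested genes fell and none rose. Col11a1, a chain of collagen XI that sits inside type II fibrils, was at 10.2 and 10.8 FPKM in control and 3.14 and 4.26 FPKM in cKO neurospheres (log2 fold change -1.30, SE 0.14, adjusted p = 0.00354). Col27a1, a fibrillar collagen of cartilage, was at 7.63 and 8.95 FPKM against 2.26 and 2.03 FPKM (-1.56, SE 0.13, adjusted p = 0.00187). Col11a2, a second collagen XI chain, was at 1.87 and 2.73 FPKM against 0.132 and 0.209 FPKM (-1.48, SE 0.20, adjusted p = 0.00632). The cKO means of these 3 genes were 0.353, 0.258 and 0.0741 of the control means. Col5a1 and Col5a3, chains of collagen V, were at 1.07 to 1.16 against 1.07 to 1.58 FPKM and 1.29 to 1.63 against 1.58 to 1.67 FPKM, with overlapping groups.

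In the class of other collagens, 3 of 8 tested genes fell and 1 rose. Col9a1 and Col9a2, chains of collagen IX, which decorates type II fibrils, were at 2.28 and 2.17 against 0.218 and 0.422 FPKM, and at 3.13 and 4.05 against 1.04 and 0.864 FPKM. Their log2 fold changes were -1.29 (adjusted p = 0.00629) and -1.23 (adjusted p = 0.00633), both from limma. The third chain, Col9a3, was at 3.57 and 5.37 FPKM in control and 2.71 and 3.66 FPKM in cKO, with overlapping groups and no call. Col16a1, a fibril-associated collagen, fell from 9.49 and 10.2 to 4.89 and 6.42 FPKM (-0.71, SE 0.14, adjusted p = 0.0185). Col26a1 went the other way, from 5.32 and 5.67 to 13.9 and 19.4 FPKM (1.43, SE 0.16, adjusted p = 0.0038), which is 3.04-fold by the means.

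All 5 basement membrane genes tested were called, but not in a single direction. Col4a1 was at 1.68 FPKM in both control libraries and 4.18 and 3.56 FPKM in the cKO libraries (0.86, SE 0.14, adjusted p = 0.0101). Its neighbour Col4a2 was at 0.566 and 0.579 against 1.44 and 1.35 FPKM (0.61, SE 0.17, adjusted p = 0.0497). Col18a1, a proteoglycan collagen that is cut to release endostatin, was at 1.28 and 1.37 against 3.69 and 5.59 FPKM (1.26, SE 0.19, adjusted p = 0.00902). Col4a5 and Col4a6, the paired genes on the X chromosome, lay lower, at 4.14 and 2.37 against 0.786 and 1.56 FPKM and at 0.570 and 1.37 against 0.0980 and 0.299 FPKM. These 2 calls were weak, with log2 fold changes of -0.96 (adjusted p = 0.0546) and -0.69 (adjusted p = 0.114, limma). The Col4a5 call was lost without control library 1 (-0.66) and the Col4a6 call without cKO library 1 (-0.57).

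As a share of all collagen FPKM, leaving out Col20a1 and Col23a1 because their entries also cover other genes, fibrillar collagens took 39.8% and 40.6% in control and 21.8% and 18.3% in cKO neurospheres. Basement membrane collagens took 14.8% and 11.8% against 22.7% and 22.5%. The sum over all collagens was 56.3 and 63.1 against 45.6 and 55.1 FPKM, so the makeup differed more than the total. The median log2 fold change was -1.30 for fibrillar, 0.61 for basement membrane and -0.31 for other collagens tested, beside -0.01 over all genes tested. These medians cover the 18 genes over the filter, and the other 26 were under it.

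**Figure D3:**
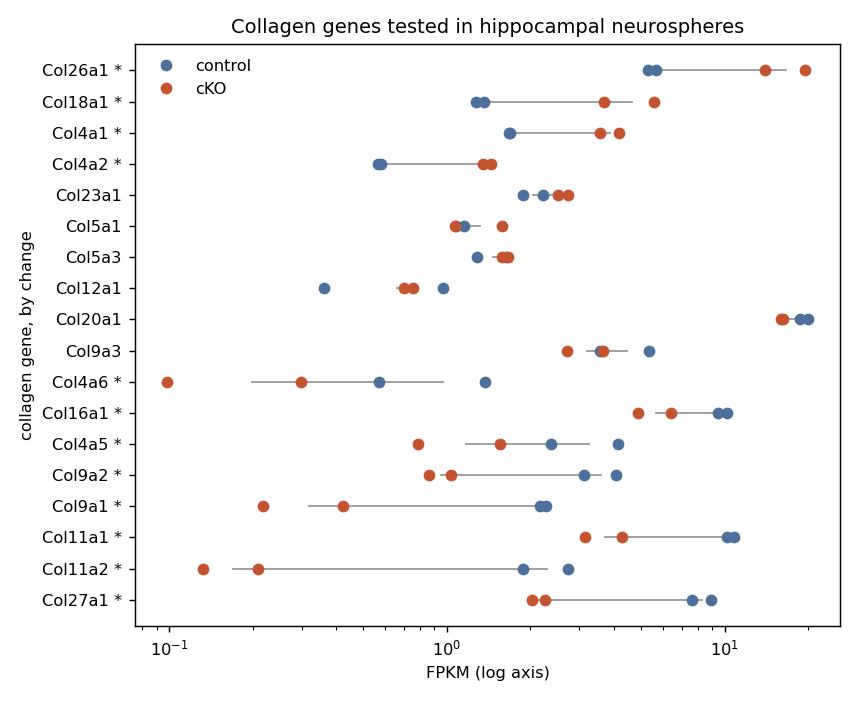
FPKM on a log axis for the 18 collagen genes tested in hippocampal neurospheres, sorted by log2 fold change, with 1 point per library (blue control, red cKO, n = 2 and 2), grey lines joining the group means and a star on called genes. The lowest rows, from Col27a1 to Col4a6, have both red points left of the blue ones, and Col26a1, Col18a1, Col4a1 and Col4a2 at the top have them to the right.

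Col2a1, the collagen with the largest change in hippocampal tissue, was near the floor in culture. It was at 0.114 and 0.121 FPKM in control and 0.0791 and 0.181 FPKM in cKO neurospheres, under the filter, so it was not tested there. Col1a1, Col1a2 and Col3a1, also under the filter, summed to 0.00852 and 0.0754 FPKM in control and to 1.48 and 0.0757 FPKM in cKO neurospheres, the single higher value being cKO library 1. In that library the sum of 8 mural markers was 2.21 FPKM against 0.302 to 0.760 FPKM in the other 3, and the part of such cells was not tested. Meningeal markers were almost all under the filter, and 2 of the 12 were at 0 in all 4 libraries. Their sum of 65.4 to 135 FPKM came largely from Ptgds, prostaglandin D synthase, with means of 124 and 75.4 FPKM in control and cKO.

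Some genes of collagen synthesis and turnover were called, in a table where 11.4% of all genes were called higher and 13.2% lower. Serpinh1, the collagen chaperone HSP47, fell from a mean of 12.3 to 3.49 FPKM (-1.57, adjusted p = 0.00387), and of 14 tested genes of chain modification and folding 3 fell and 1 rose. The others were the lysyl hydroxylase genes Plod1 (16.9 to 12.2 FPKM) and Plod2, the single rise (10.6 to 17.8 FPKM), and an entry that joins the prolyl hydroxylase gene P3h3 with Gpr162 (46.4 to 30.6 FPKM), so that its value is uncertain for P3h3. Of 8 secretion and cross-linking genes tested, 2 rose, Adamts3, a procollagen protease (3.54 to 10.6 FPKM, adjusted p = 0.00163), and Adamts14 (1.79 to 3.43 FPKM, adjusted p = 0.0712). Among 6 genes of collagen breakdown tested, Mmp14 and Mmp15 rose and the inhibitor genes Timp3 (16.4 to 4.27 FPKM) and Timp4 fell. Of 3 collagen receptor genes tested, Ddr2 fell (8.01 to 5.24 FPKM, adjusted p = 0.0563). Sox9 was lower here, at 74.2 and 48.8 FPKM (-0.60, adjusted p = 0.00736), while it was higher in the tissue. Of 2 cartilage genes tested, Matn1 was at 3.77 FPKM in control and listed at 0 in cKO, and Pth1r rose from 1.43 to 6.18 FPKM (1.58, adjusted p = 0.00453).

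The difference between the tissue and the culture was tested as hippocampal minus neurosphere log2 fold change over the 18 collagen genes measured in both. It passed an adjusted p of 0.05 for 10 of them, against 22.4% of all genes so tested. The largest were those of Col27a1 (1.76, SE 0.20, adjusted p = 0.000165), Col11a2 (1.61, SE 0.21, adjusted p = 0.00033) and Col9a1 (1.47, SE 0.21, adjusted p = 0.000628), which fell in neurospheres and were not called in tissue. For Col18a1 the difference was -1.21 (SE 0.27, adjusted p = 0.00754). Col26a1, higher in both, differed by -0.79 (SE 0.19, adjusted p = 0.0103), with the larger change in neurospheres.

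In Kdm2b cKO cortex, 13 of 24 collagen genes tested were higher and none lower. The cortical background was 4.73% of genes called higher and 2.28% lower, and 0.427% were called with an adjusted p under 0.05, which among collagens was met by Col26a1 alone. With limma-voom on the recovered reads, added after seeing the data, 483 genes and 12 collagens had an adjusted p under 0.05. When any 1 library was left out, a group was left with 1 library. The limma count at an adjusted p under 0.05 then fell over all genes as well as among collagens. The count of unadjusted calls was 11 to 15 with 1 library left out. By class, 5 of 8 fibrillar, 3 of 5 basement membrane and 5 of 11 other collagens tested were higher. The median log2 fold change was 0.92, 0.61 and 0.32 in the 3 classes, beside -0.01 over all genes tested.

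Col3a1, Col1a1, Col1a2, Col6a1, Col6a2, Col6a3 and Col5a2 encode chains of collagens I, III, V and VI, typical of fibroblasts. Col3a1 was at 0.250 and 0.451 FPKM in control and 10.5 and 4.14 FPKM in cKO cortex (2.51, SE 0.38, adjusted p = 0.0999), from 54 and 94 against 2025 and 760 reads. Col1a1 was at 0.104 and 0.323 against 5.29 and 2.43 FPKM (1.94, SE 0.31, adjusted p = 0.109), and Col1a2 at 0.164 and 0.318 against 5.84 and 2.55 FPKM (1.99, SE 0.32, adjusted p = 0.11). Both cKO libraries were over every control library for all 3 genes, and cKO library 1 was more than 2 times cKO library 2. Col6a1 was at 0.0104 and 0.0859 FPKM, from 1 and 8 reads, against 3.42 and 1.68 FPKM, from 294 and 138 reads (1.72, SE 0.26, adjusted p = 0.0979). Col6a2 (0.0872 and 0.158 against 1.54 and 0.803 FPKM) and Col6a3 (0.0835 and 0.134 against 1.48 and 0.510 FPKM) were called. Their log2 fold changes were 0.93 for Col6a2 (adjusted p = 0.186) and 0.80 for Col6a3 (adjusted p = 0.318). The Col6a3 call was lost without control library 1 (0.77) and without control library 2 (0.84), and without cKO library 1 the gene was under the filter. Col5a2, a collagen V chain, was at 0.781 and 0.775 against 2.79 and 1.86 FPKM (0.89, SE 0.17, adjusted p = 0.137).

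Among basement membrane collagens, Col4a1 was at 9.17 and 8.94 FPKM in control and 23.9 and 14.8 FPKM in cKO cortex (0.98, SE 0.22, adjusted p = 0.188). Col4a2 was at 7.45 and 6.55 against 18.3 and 11.7 FPKM (0.97, SE 0.21, adjusted p = 0.176). Col18a1 was at 1.84 and 2 against 4.62 and 2.56 FPKM, and its call was lost without cKO library 1 (0.28), without control library 1 (0.57) and without control library 2 (0.65). In all of these cKO library 1 was again the higher.

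For a further 3 called genes, the cKO libraries lay closer to each other. Col2a1 was at 2.66 and 2.21 FPKM in control and 6.01 and 5.25 FPKM in cKO cortex (0.95, SE 0.11, adjusted p = 0.0673, limma). Col26a1 was at 0.4 and 0.265 against 3.37 and 2.57 FPKM (1.57, SE 0.15, adjusted p = 0.0416). Col23a1, a transmembrane collagen, was at 0.728 and 0.730 against 1.99 and 2.07 FPKM (0.81, SE 0.11, adjusted p = 0.0929). For Col2a1 the log2 fold change was 0.86 to 1.04 with any 1 library left out. Among the more abundant chains not called were Col11a1 (2.74 ± 0.320 and 2.26 ± 0.168 FPKM, SD, n = 2), Col11a2 (1.33 and 1.21 FPKM), Col9a3 (8.39 and 9.03 FPKM), Col22a1 (1.74 and 2 FPKM) and Col12a1 (1.43 and 1.35 FPKM).

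Markers of meningeal fibroblasts moved together with these genes in cortex. Of 12 such markers 11 were tested and all 11 were higher, and the sum of the 12 was 3 and 5.09 FPKM in control and 48.2 and 51.3 FPKM in cKO libraries, with no marker at 0 in all libraries. Examples are the fibroblast proteoglycans Dcn (0.373 to 5.88 FPKM, 2.33, adjusted p = 0.0114) and Ogn (0.587 to 5.42 FPKM, 2.02, adjusted p = 0.0169), and Aldh1a2, which makes retinoic acid in meninges (0.0724 to 4.44 FPKM, 2.31, adjusted p = 0.043). Endothelial markers summed to 41 and 42.5 against 64.0 and 65.6 FPKM, with 3 of 9 tested called higher, and mural markers to 33.4 and 34.6 against 49.3 and 57.5 FPKM, with 3 of 7 called higher. How much meninges or vessels were dissected with each cortex is not given, and the part of these cells in the collagen values was not tested. The collagen I and III sum was 21.6 FPKM in cKO library 1 and 9.12 FPKM in cKO library 2, while the meningeal marker sum was 48.2 and 51.3 FPKM in the same libraries.

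Some genes that act on collagen were also called in cortex. Lox, the lysyl oxidase that cross-links fibrils, went from a mean of 0.0879 to 2.71 FPKM (1.77, adjusted p = 0.0254) and Loxl2 from 0.605 to 1.62 FPKM (0.71, adjusted p = 0.176), the 2 called of 10 secretion and cross-linking genes tested. Of 15 modification and folding genes tested, 3 were higher, Serpinh1 (25.4 to 41.6 FPKM), P3h4 and Crtap, each with an adjusted p over 0.1. Of 8 breakdown genes tested, Mmp14 (10.8 to 15.2 FPKM) and Ctsk (0.903 to 2.67 FPKM) were higher, and of 4 receptor genes Ddr2 (0.738 to 1.49 FPKM). Pth1r, the 1 cartilage gene tested, went from 2.68 to 14.1 FPKM (2.03, adjusted p = 0.00651), while 0 of the 3 SOX genes were called by limma at the unadjusted threshold.

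The hippocampal minus cortical difference of log2 fold changes passed an adjusted p of 0.05 for 7 of 22 collagen genes, against 1.6% of all genes so tested. Col3a1 (-2.71), Col1a2 (-2.18), Col1a1 (-2.14), Col6a1 (-2.01), Col6a2 (-1.28) and Col26a1 (-0.93) had the larger or only rise in cortex. For Col2a1 the change was larger in hippocampus, by 0.90 (SE 0.20, adjusted p = 0.046).

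**Figure D4:**
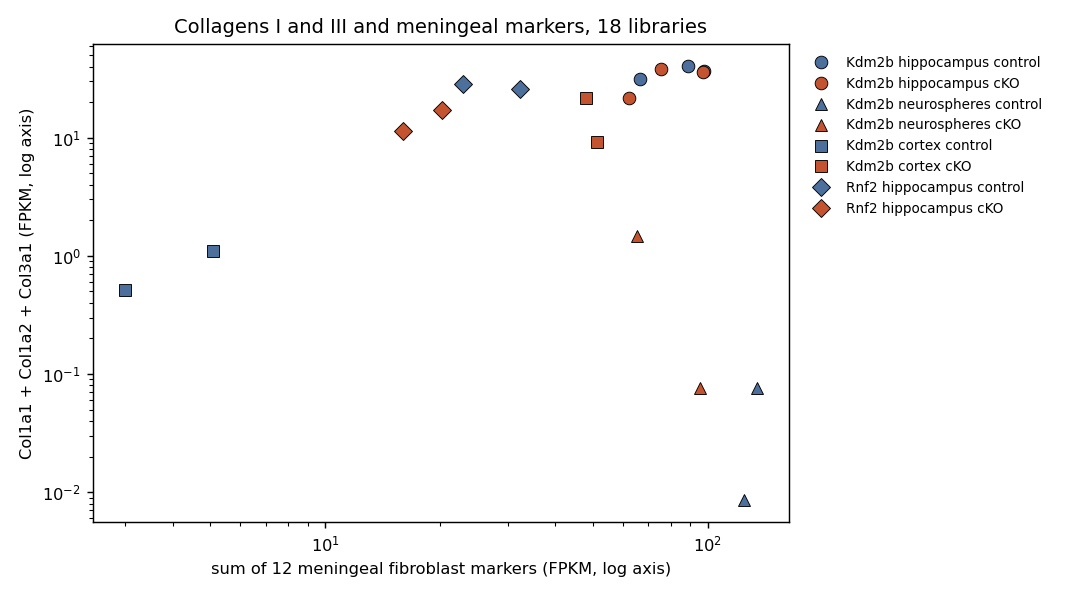
Sum of Col1a1, Col1a2 and Col3a1 against the sum of 12 meningeal fibroblast markers in the 18 libraries, both in FPKM on log axes, with shapes for the 4 tables and colours for the genotype (blue control, red cKO). The 2 cortical controls lie at the lower left, at 0.518 and 1.09 FPKM of collagen, the 2 cortical cKO libraries lie near the hippocampal ones at 21.6 and 9.12 FPKM, and the neurosphere libraries lie low on the collagen axis. The marker sum of the neurosphere libraries, 65.4 to 135 FPKM, came largely from Ptgds, and almost all other markers were under the filter there.

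In Rnf2 cKO hippocampus, 4 of 26 collagen genes tested were lower and none higher. The background was 2.86% of genes called higher and 1.85% lower, and 0.0% had an adjusted p under 0.05, so no collagen reached it either. With limma-voom on the recovered reads, 4 genes of 756 called had an adjusted p under 0.05, and none was a collagen. The calls therefore rest on unadjusted p values.

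The 4 genes were again chains of collagens I, III and VI. Col3a1 was at 10.4 and 10.3 FPKM in control and 4.46 and 6.09 FPKM in Rnf2 cKO libraries (-0.87, SE 0.16, adjusted p = 0.517, limma). Col1a1 was at 8.89 and 11.5 against 4.15 and 6.61 FPKM (-0.83, SE 0.23, adjusted p = 0.647). Col1a2 was at 6.41 and 6.77 against 2.77 and 4.33 FPKM (-0.76, SE 0.19, adjusted p = 0.624). The means of these 3 genes in cKO were 0.510 to 0.538 of the control means. Col6a1 was at 3.08 and 3.23 against 1.78 and 1.52 FPKM (-0.65, SE 0.15, adjusted p = 0.571). The Col1a1 and Col1a2 calls were lost without cKO library 1 (-0.54 and -0.51) or without control library 2 (-0.66 and -0.73), and the count of calls then was 2 and 3.

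Meningeal markers lay lower in the same libraries, with a sum of 32.2 and 22.9 FPKM in control and 16.0 and 20.1 FPKM in Rnf2 cKO, and 3 of 11 tested were called lower. Mural markers summed to 69.7 and 74.8 against 49.5 and 59.7 FPKM, with 2 of 8 called lower, and none of 9 endothelial markers tested was called. The part of these cells in the collagen values was not tested. Lox was also lower, at 1.38 and 0.631 FPKM (-0.55, adjusted p = 0.69), and Loxl1 higher, at 6.22 and 8.80 FPKM (0.44, adjusted p = 0.669), among 10 secretion and cross-linking genes tested. By limma at the unadjusted threshold, 0 of 15 folding, 0 of 9 breakdown, 0 of 4 receptor, 0 of 3 cartilage and 0 of 3 SOX genes tested were called.

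Basement membrane and other collagens of the Rnf2 table were not called apart from Col6a1. Col4a1 was at 23.8 and 34.8 against 19.7 and 30.0 FPKM and Col4a2 at 17.4 and 24.2 against 15.1 and 18.5 FPKM, with overlapping groups. Col4a5 was at 5.57 ± 0.315 and 5.37 ± 0.987 FPKM, Col9a3 at 4.23 ± 0.249 and 5.54 ± 1.16 FPKM and Col12a1, a fibril-associated collagen, at 4.01 ± 2.17 and 4.37 ± 0.903 FPKM (SD, n = 2). The median log2 fold change was -0.14 for fibrillar, -0.18 for basement membrane and 0.02 for other collagens, beside 0.00 over all genes tested.

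Neither Col2a1 nor Col26a1 was called in Rnf2 cKO hippocampus. A difference from the change in Kdm2b hippocampus passed the test for Col2a1 but not for Col26a1. Col2a1 was at 3.16 and 4.01 FPKM in control and 3.04 and 4.65 FPKM in cKO libraries, a log2 fold change of 0.07 (SE 0.21, adjusted p = 0.964, limma) with overlapping groups. Tested as a difference, the Kdm2b hippocampal log2 fold change of Col2a1 exceeded that of Rnf2 by 1.78 (SE 0.25, adjusted p = 0.00878). It was the 1 collagen of 25 past this threshold, against 0.683% of all genes so tested. Col26a1 was at 2.78 and 1.49 FPKM in control and 2.07 and 2.05 FPKM in cKO, and its difference of 0.64 (SE 0.22, adjusted p = 0.194) did not pass.

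Across the 3 Kdm2b tables, Col26a1 was the 1 collagen called in the same direction in all, with log2 fold changes of 0.64, 1.43 and 1.57 in hippocampus, neurospheres and cortex. This was not particular to Col26a1, as Pth1r of the cartilage list was also called higher in all 3 (1.75, 1.58 and 2.03). The share of all genes called in the same direction in all 3 tables was not counted, and only 18 collagens were tested in neurospheres. Col2a1 was higher in both Kdm2b tissues and near the floor in neurospheres. The tables were normalized separately, so levels can be set side by side but not tested. Control levels of Col2a1 were in the order of hippocampus in the Kdm2b table (3.51 to 4.20 FPKM), hippocampus in the Rnf2 table (3.16 and 4.01), cortex (2.21 and 2.66) and neurospheres (0.114 and 0.121), and the ranges of the first 2 overlap.

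**Figure D5:**
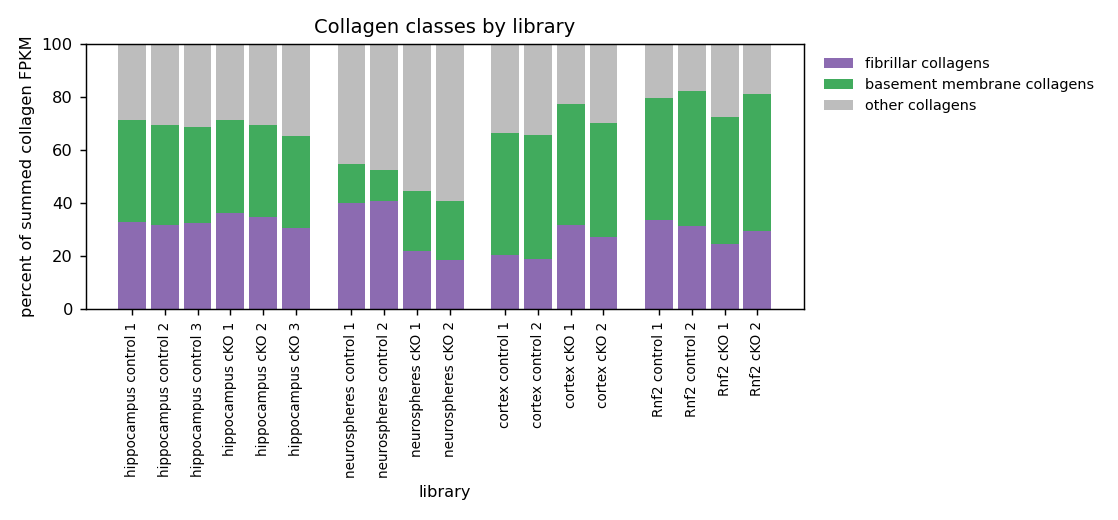
Share of the summed collagen FPKM of each library, in percent, taken by fibrillar, basement membrane and other collagens, for the 18 libraries in order of table and genotype, leaving out Col20a1 and Col23a1. The fibrillar share is 39.8% and 40.6% in control and 21.8% and 18.3% in cKO neurospheres, and 18.8% and 20.4% in control and 31.5% and 27.0% in cKO cortex.

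The makeup of the tissue libraries can be read from the same shares. In Kdm2b hippocampus fibrillar collagens took 31.4% to 32.9% in control and 30.4% to 36.3% in cKO libraries, with overlap, and basement membrane collagens 36.1% to 38.3% and 34.7% to 35.2%. In cortex the sum over all collagens was 47.5 and 45.5 FPKM in control and 116 and 79.1 FPKM in cKO. In Rnf2 hippocampus it was 115 and 141 against 93.8 and 118 FPKM, with overlap.

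The entry for Col20a1, at 24.9 to 28.6 FPKM in Kdm2b hippocampus and 15.9 to 20.0 FPKM in neurospheres, is joined with the gene Arfgap1, and in the cortical and Rnf2 tables, where Col20a1 has its own entry, it was at 0.0118 to 0.218 FPKM. Col23a1 is joined with Phykpl in the same 2 tables and Col7a1 with Mir711, so their values there are uncertain. Among the 10 genes under the filter in every table are Col10a1, a collagen of hypertrophic cartilage, and Col24a1, a fibrillar collagen, with at most 0.166 and 0.271 FPKM in any library.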

How the data were processed

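RNA was measured in 18 libraries, and groups follow the labels deposited with the samples. As the methods state for hippocampi and neurospheres, the authors ran cutadapt, then STAR against mm10, and obtained the deposited FPKM with Cufflinks 2.2.1. The methods do not name the cortical libraries, and the cortical and Rnf2 tables have another form, with a length for each Ensembl gene. In those, FPKM times length gave whole reads for 100.0% of values within 0.05 of a read.

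Entries without a gene name were left out (2861 of 27180 in hippocampus, 2059 of 26293 in neurospheres, 140 of 54672 in cortex), and the highest-mean entry of a name was kept. Each table was fitted alone with limma 3.58.1 (R 4.3.3; lmFit, then eBayes using a trend) on log2(FPKM + 1) of genes whose mean reached 0.5 FPKM. Differences between tables are genotype-by-table interactions in a joint fit. The fits were tested on simulated data. No count test was used apart from limma-voom, added after seeing the data. Depth limits low genes in cortex and Rnf2 hippocampus and is unknown elsewhere.

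The collagen genes and gene lists were chosen with earlier results of these data known. Named in full are Col2a1, collagens called in any table and the 3 most abundant of each class in each table, with called genes of the other lists (up to 4 per list).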

Additional observations from a re-analysis of the deposited data

Results flagged for a closer look

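The listed results are those where the change of a collagen gene differed between tables by the interaction test of limma, with an adjusted p under 0.05. All compare Kdm2b hippocampus, with 3 libraries per group, with a table of 2 per group, so the libraries of Kdm2b hippocampus enter each difference. Against neurospheres, the hippocampal log2 fold change was higher by 1.76 for Col27a1, 1.61 for Col11a2, 1.47 for Col9a1, 1.31 for Col9a2, 1.15 for Col11a1 and 0.65 for Col16a1, all of which fell in neurospheres. It differed by -1.21 for Col18a1, -0.93 for Col4a1, -0.79 for Col26a1 and -0.65 for Col4a2, all of which rose there. Neurospheres differ from the tissue both in growth in culture and in the cells they hold, and these cannot be told apart.

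Against cortex, the difference was -2.71 for Col3a1, -2.18 for Col1a2, -2.14 for Col1a1, -2.01 for Col6a1, -1.28 for Col6a2 and -0.93 for Col26a1, and 0.90 for Col2a1. The 12 meningeal markers summed to 3 and 5.09 FPKM in control and to 48.2 and 51.3 FPKM in cKO cortex, and their part in these differences was not tested. Against Rnf2 hippocampus, the difference was 1.78 for Col2a1.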

How the results depend on the processing

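With the replicate number as a replicate block, 3, 12, 15 and 4 collagen genes were called in Kdm2b hippocampus, neurospheres, cortex and Rnf2 hippocampus, against 3, 12, 13 and 4 without it. Deviations of same-numbered libraries correlated at -0.10 to 0.05 in hippocampus, -0.28 in neurospheres, -0.05 in cortex and 0.16 in Rnf2 hippocampus. With 2 or 3 libraries per group, these values cannot show whether same-numbered libraries were paired or share a batch. The crossed pairing in neurospheres, added after seeing the data, gave 12 calls. With no fold change threshold, 6 collagens were called in hippocampus. With an adjusted p under 0.05, 1 was called in cortex (12 with limma-voom) and 0 in Rnf2 hippocampus. With any 1 library left out, the cortical count fell together with that over all genes. Without a filter on low values the median of the collagens was 0.0094 in neurospheres and 0.11 in cortex, over more genes, and with limma-voom the cortical median was 1.06. With 1 library left out, the median ran from -0.46 to -0.13 in neurospheres and from 0.37 to 0.92 in cortex, and Rnf2 hippocampus had 2 to 5 calls and a Col2a1 log2 fold change of -0.18 to 0.31, below 0 without control library 1 (-0.07) or cKO library 2 (-0.18). The cause was not tested. A group left with 1 library was assumed to vary like the other. Of the alternatives for the main values, 165 were graded the same, 10 moved and 2 reversed. For single genes that grade means that direction and call were kept, while counts and medians were only held to a set margin. The median of the collagens in Kdm2b hippocampus, -0.03 in the main fit, ran from -0.05 to 0.07 and was graded the same. Rescaling to the same FPKM total shifted the neurosphere median over all genes by 0.105 and no called collagen there changed direction. Col2a1 in neurospheres was under the filter and has no log2 fold change or interaction with hippocampus.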

Other observations

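Choroid plexus markers differed between libraries of a group in the hippocampal tables. In Rnf2 hippocampus their sum was 59.9 and 18.4 FPKM in control and 253 and 14.2 FPKM in cKO libraries, and 0 of 6 tested were called by limma at the unadjusted threshold. Col2a1 in the same libraries was at 3.16 and 4.01 against 3.04 and 4.65 FPKM. In neurospheres the sum was 55.3 and 60.1 against 29.6 and 24.8 FPKM, with 1 of 2 tested called lower, and in cortex 1.72 and 2.61 against 5.02 and 4.25 FPKM, with 2 of 2 tested called higher. Of all genes tested, 11.4% were called higher and 13.2% lower in neurospheres, and 4.73% and 2.28% in cortex. The 4 genes of hippocampal fields (Prox1, Zbtb20, Neurod6 and Nrp2) summed to 321 to 372 FPKM in control and 325 to 328 FPKM in Kdm2b cKO hippocampus, with 0 of 4 called by limma. In cortex their sum was 506 and 572 FPKM in control and 498 and 519 FPKM in cKO libraries, with 1 of 4 called lower. A high sum is therefore not particular to hippocampus. In Kdm2b hippocampus, the 6 neuronal markers summed to 2043 to 2082 FPKM in control and 1580 to 1838 FPKM in cKO libraries, with 1 of 6 called lower, and 3 of 6 progenitor markers were called higher. Over all genes tested in Kdm2b hippocampus, 3.89% were called higher and 2.25% lower. In neurospheres 0 of 1 endothelial and 0 of 1 mural markers tested were called by limma.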
